A study of Mus musculus with 15 samples.

Results

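The colony-stimulating and stem cell growth factors are 8 genes, *Csf1*, *Csf2*, *Csf3*, *Il34*, *Kitl*, *Flt3l*, *Il7* and *Il15*. They were found on the arrays as the probes that are no controls and whose systematic name is a RefSeq transcript of a listed gene, which gave 16 of 56605 probes, while 23462 genes in all have a probe named in this way. RNA came from Mouse Embryonic Fibroblasts (MEFs), here the established line Balb/c/3T3 clone A31, so that all values describe cultures of 1 clone. There were 5 groups of 3 arrays. Controls were MEFs left untreated. TNFα was given at 10 ng/ml, TGFß1 at 5 ng/ml and IL-1β at 1 ng/ml. The group called IL-6 here received IL-6 at 20 ng/ml together with its soluble receptor sIL-6Rα at 25 ng/ml. All MEFs grew in serum-supplemented medium, stimulation lasted 24 h for controls, TNFα and TGFß1, and the exposure of the IL-1β and IL-6 cultures is not given for the group in the sources used here. Arrays are called by their group and the number that opens their label, and the paper describes 3 independent experiments without a key in the labels to the arrays that share an experiment.

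These growth factors are secreted or membrane-bound ligands through which stromal cells such as fibroblasts keep blood cells alive, dividing and maturing. CSF1 (M-CSF) and IL-34 share a receptor, CSF1R, on macrophages and their precursors, CSF2 (GM-CSF) and CSF3 (G-CSF) act on granulocytes and dendritic cells, and KIT ligand and FLT3 ligand act on stem and progenitor cells, mast cells and dendritic cells. IL-7 and IL-15 act on lymphocytes through receptors that use the common γ-chain. In fibroblasts, inflammatory cytokines are known inducers of the colony-stimulating factors.

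Values are relative log2 signals, that is, the log2 brightness of a probe minus the 75th percentile of its array, so that a negative value lies under that percentile. A probe called well above background carries this mark of the scanner software on at least 0.5 of its spots. The 75th percentile was 508 to 683 and 48.3% to 54.8% of the probes were well above background per array, and the number of arrays limits the precision. Arrays lay on 2 slides, slide 1 with controls 1 and 11, TNFα 14, TGFß1 7, IL-1β 5 and 10 and IL-6 3 and 8, and slide 2 with the other arrays. The numbers in the labels form 3 runs of 5, in which each group has a single array, and what a run stands for is not given in the sources used here. The fibroblast markers fixed for the check of the label, 11 of 11, were well above background on all arrays, and their summed level was 10.29 to 10.56 in controls, 9.86 to 10.22 with TNFα and 10.13 to 10.68 in the other treated groups. Of 8 macrophage markers, *Itgam*, *Csf1r*, *Cd68* and *Cd14* were well above background on all arrays, while *Ptprc*, *Adgre1*, *Lyz2* and *Fcgr1* were so on 0 arrays. The summed level of this list was 2.81 to 3.90 in controls and 2.89 to 4.01 over the treated groups. Of the other lists, *Tpsb2* of 5 mast cell markers, *Cd3e* and *Cd4* of 4 T cell markers with a probe, *Pecam1* of 4 endothelial markers and none of 4 epithelial markers were well above background on all arrays. *Kit*, *Cdh5*, *Tek*, *Kdr* and *Cdh1* were so on 0 arrays.

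The RefSeq table of promoters (assembly GRCm38.p6, 32851 promoters) holds 4 of the 8 genes, and it does not list *Csf3*, *Il34*, *Il7* and *Il15*. Their 250 bases before the transcription start are shown, 5′ to 3′, because *Csf1* and *Csf2* were the colony-stimulating factors higher with TNFα, and *Kitl* and *Flt3l* the stem cell factors lower with TGFß1. The windows are chr3:107760470-107760719 (minus strand) for *Csf1*, chr11:54249900-54250149 (minus strand) for *Csf2*, chr10:100015571-100015820 (plus strand) for *Kitl* and chr7:45136433-45136682 (minus strand) for *Flt3l*. Capitals mark matches, on either strand, to NF-kB (GGNNNTTCC), AP-1 (TGANTCA), C/EBP (TTGCNNAA), STAT (TTCNNNGAA), IRF (GAAANNGAA), SMAD (CAGACA) or the TATA box (TATAAA).
Csf1: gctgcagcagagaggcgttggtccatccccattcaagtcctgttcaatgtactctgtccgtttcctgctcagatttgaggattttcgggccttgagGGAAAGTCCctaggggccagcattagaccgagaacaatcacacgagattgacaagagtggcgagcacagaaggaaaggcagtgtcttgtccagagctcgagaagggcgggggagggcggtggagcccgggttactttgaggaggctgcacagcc
Csf2: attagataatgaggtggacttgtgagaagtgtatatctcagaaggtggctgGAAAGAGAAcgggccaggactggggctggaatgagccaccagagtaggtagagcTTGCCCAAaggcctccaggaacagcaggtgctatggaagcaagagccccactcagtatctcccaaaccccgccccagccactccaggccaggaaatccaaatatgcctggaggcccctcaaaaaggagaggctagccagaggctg
Kitl: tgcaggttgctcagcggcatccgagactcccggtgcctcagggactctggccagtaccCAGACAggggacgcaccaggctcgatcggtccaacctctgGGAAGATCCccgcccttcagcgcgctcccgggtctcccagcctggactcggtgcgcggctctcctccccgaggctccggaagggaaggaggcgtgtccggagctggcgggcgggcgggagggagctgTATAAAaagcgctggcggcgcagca
Flt3l: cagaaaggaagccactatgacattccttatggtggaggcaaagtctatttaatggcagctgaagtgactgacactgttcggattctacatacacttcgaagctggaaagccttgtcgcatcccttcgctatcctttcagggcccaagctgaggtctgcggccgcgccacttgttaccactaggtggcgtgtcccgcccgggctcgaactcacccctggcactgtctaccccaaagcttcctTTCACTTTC

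In *Csf1* the capitals are an NF-kB match at -154 to -146 from the start, and in *Csf2* an IRF match at -199 to -191 and a C/EBP match at -145 to -138. A further NF-kB match of *Csf2* lies after its start, at 24 to 32. In *Kitl* they are a SMAD match at -192 to -187, an NF-kB match at -152 to -144 and a TATA box at -25 to -20, with a further SMAD match at 18 to 23. In *Flt3l* an IRF match ends at the base before the start. Over windows from 250 bases before to 50 after the start, the NF-kB letters occurred in 18.5% of all promoters, AP-1 in 7.81%, C/EBP in 10.8%, STAT in 8.30%, IRF in 8.56%, SMAD in 21.0% and the TATA box in 13.6%. A match is a description of letters and no measured site.

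TNFα and TGFß1 each moved members of this group of genes, and IL-1β and IL-6 gave no call. *Il34* was called higher and *Kitl* lower in both, but 1 call of each gene was weak. The *Il34* call with TGFß1 was lost in 9 of 16 alternative analyses, and the *Kitl* call with TNFα in 8 of 16. The NM_001347156 probes of *Kitl* were not called with TNFα (q = 0.0662 and 0.115 in limma). With TNFα, *Csf1* and *Il34*, the ligands of CSF1R, and *Csf2* were higher than in controls, and *Kitl* was lower. With TGFß1, *Il34* was higher, and *Kitl*, *Flt3l*, *Il7* and *Il15* were lower. The *Il15* call was lost in 6 of 16 alternative analyses, and its difference was -0.37 within slide 1 and -2.44 within slide 2. The tests were moderated two-sided tests in limma with Benjamini-Hochberg q-values over 29333 probes, those that all 3 arrays of some group showed well above background, and a probe was called at q < 0.05 with a fold-change of at least 1.5. Of the 8 genes, 7 were tested (14 of 16 probes), and *Csf3* did not pass the filter on dim probes. With TNFα, 4 of the 7 were called, where 10.2% of all tested probes were called, 4.12% higher and 6.06% lower, and the median log2 fold-change was 0.38 for the 7 genes and 0.04 for all tested probes. This count and median include *Csf2*, which passed the filter through the TNFα and IL-1β arrays, where it is high, so that they are a description. Among probes well above background on all arrays, which leave out *Csf2* and *Il7*, 3 members were called with TNFα. With the array median in place of the 75th percentile, the higher probes were 29.6% rather than 40.5% of the TNFα calls. With TGFß1, 5 of the 7 were called, 1 higher and 4 lower, where 18.0% of all tested probes were called, 7.17% higher and 10.8% lower, and the medians were -1.16 and 0.05. All comparisons with controls share the same 3 control arrays. A lower signal per culture does not tell fewer expressing cells from less RNA per cell.

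**Figure D1:**
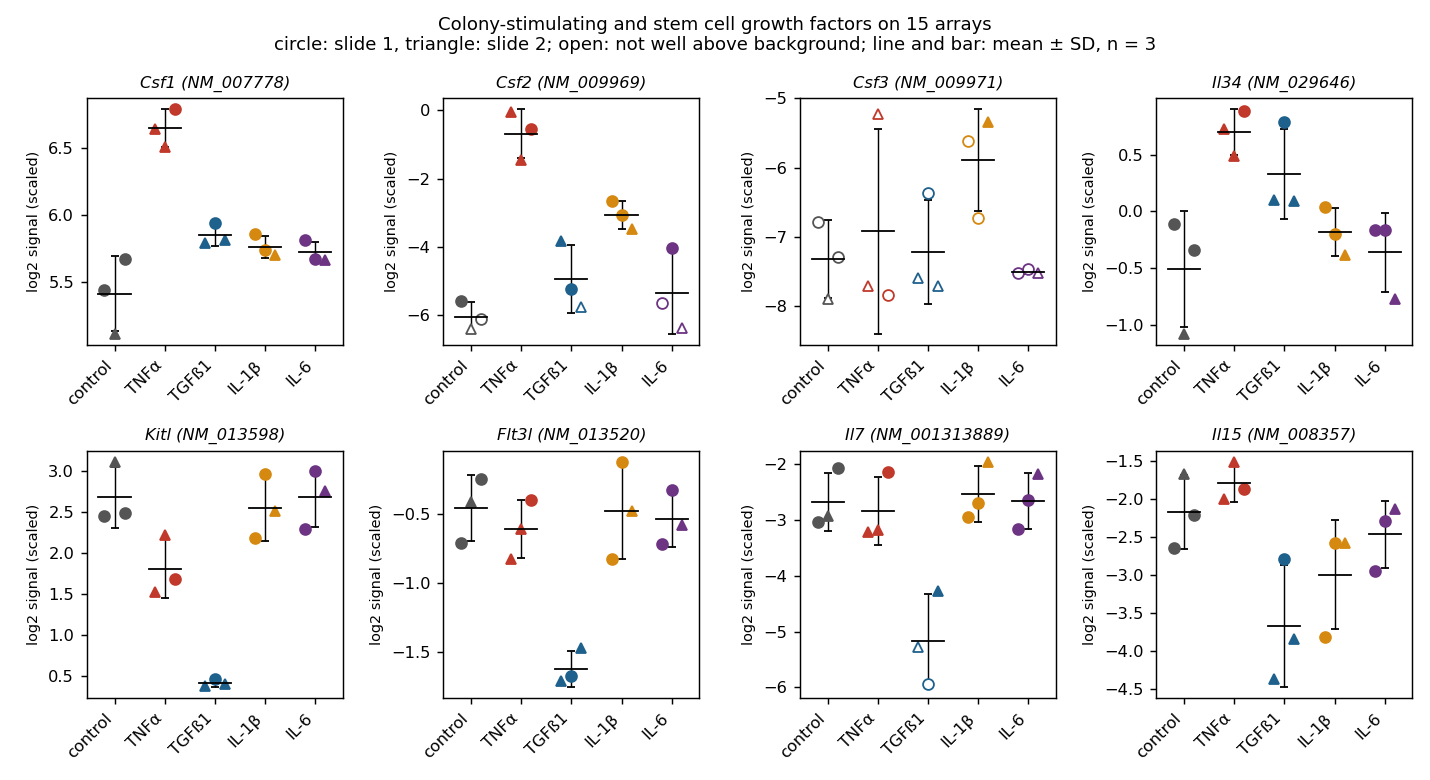
Relative log2 signal (log2 brightness minus the 75th percentile of the array, vertical axes) of the 8 genes on 15 arrays, each gene by its brightest probe, with circles for slide 1, triangles for slide 2, open symbols for arrays where the probe was not well above background, and lines and bars for the mean ± SD of 3 arrays. *Csf1* and *Csf2* are highest on the 3 TNFα arrays, *Kitl*, *Flt3l* and *Il7* are lowest on the 3 TGFß1 arrays, and *Csf3* is well above background on 1 array.

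*Csf1* encodes the growth and survival factor of macrophages. Its signal (NM_007778) was 5.44, 5.11 and 5.67 on controls 1, 6 and 11, and 6.64, 6.51 and 6.79 on TNFα 4, 9 and 14. It was 5.79, 5.94 and 5.81 on TGFß1 2, 7 and 12, 5.86, 5.74 and 5.70 on IL-1β 5, 10 and 15, and 5.81, 5.67 and 5.66 on IL-6 3, 8 and 13. All TNFα arrays were above all other arrays, and the other treated groups lay in a narrow band near or just above the highest control. TNFα raised *Csf1* 2.36-fold, by 1.24 on the log2 scale (SE 0.14, q = 9.81e-05 in limma), from 5.41 ± 0.28 to 6.65 ± 0.14 (SD, n = 3). The difference was 1.24 on slide 1 and 1.47 on slide 2, and the call was kept in 16 of 16 alternative analyses, which took other scalings, background corrections, filters, blocks for slide and run, or fewer arrays. With TGFß1 the difference was 0.44 (q = 0.0320 in limma), a 1.36-fold change under the fold threshold. With IL-1β it was 0.36 and with IL-6 0.31 (both q = 1 in limma). In the order of group means TNFα was followed by TGFß1 (5.85 ± 0.08), IL-1β (5.76 ± 0.08), IL-6 (5.72 ± 0.08) and controls, and from TGFß1 to IL-6, and from IL-6 to controls, neighbours overlapped.

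The other probes of *Csf1* carry the transcript NM_001113530, and both were above all other arrays with TNFα as well. Their rises with TNFα were 1.75 and 1.79 (3.37-fold and 3.46-fold, q = 1.96e-05 and 1.43e-05 in limma). With IL-1β their means were 0.64 and 0.62 above those of controls, and all 3 arrays lay above every control. These differences were not called (q = 0.212 and 0.240 in limma). With the slide and the run of label numbers as blocks they were called (q = 0.00282 and 0.00164 in limma). Within an array, the signal of NM_007778 minus the mean of both NM_001113530 probes was 1.95 to 2.20 in controls and 1.48 to 1.57 with TNFα. This is a change of -0.53 with no overlap between the groups, and the exact two-sided permutation test gave p = 0.1, the smallest that 3 arrays against 3 allow (0.267 adjusted over the 4 treatments). With TGFß1 the difference was 2.13 to 2.54, with IL-1β 1.63 to 1.96 and with IL-6 2.05 to 2.28. The gap between the probes thus narrowed on all TNFα arrays, and the exact test cannot pass 0.05 with 3 arrays a group.

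*Il34* encodes the other ligand of CSF1R. Its signal (NM_029646) was -0.11, -1.08 and -0.34 on controls 1, 6 and 11, 0.73, 0.49 and 0.89 on TNFα 4, 9 and 14, and 0.10, 0.79 and 0.09 on TGFß1 2, 7 and 12. Every array of both treatments lay above every control. TNFα raised *Il34* 2.32-fold, by 1.21 (SE 0.27, q = 0.0112 in limma), and the difference was 1.12 within slide 1 and 1.69 within slide 2. The call was lost with the array median as scale (1.11, q = 0.0774). TGFß1 raised it 1.79-fold, by 0.84 (SE 0.27, q = 0.0397 in limma), with 1.01 and 1.18 within the slides. With the slide as a block the TGFß1 value was 1.02 (q = 0.000316). The TGFß1 call was lost in 9 of 16 alternatives, among them without control 6 (0.55, q = 0.146), control 11 (0.92, q = 0.0595), TGFß1 2 (0.95, q = 0.057), TGFß1 7 (0.61, q = 0.145) or TGFß1 12 (0.95, q = 0.0526).

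With IL-1β, *Il34* stood at 0.04, -0.20 and -0.38 on arrays 5, 10 and 15, and with IL-6 at -0.16, -0.16 and -0.77 on arrays 3, 8 and 13. Both groups overlapped the controls, and the differences were 0.33 and 0.15 (both q = 1 in limma). The order of means was TNFα (0.70 ± 0.20), TGFß1 (0.33 ± 0.40), IL-1β (-0.18 ± 0.21), IL-6 (-0.36 ± 0.35) and controls (-0.51 ± 0.51). TGFß1 and IL-1β did not overlap, and the groups from IL-1β to controls did. TNFα and TGFß1 overlapped, and their difference of 0.37 (95% interval -0.21 to 0.96) was not called (q = 0.437 in limma). A second probe of the same transcript gave 1.10 with TNFα (q = 0.021) and 0.84 with TGFß1 (q = 0.0438), both called in limma.

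*Csf2* (NM_009969), which encodes GM-CSF, showed the largest rise of the 7 tested genes with TNFα. On controls 1, 6 and 11 its signal was -5.58, -6.41 and -6.11, and only control 1 was well above background. The probe passed the filter on dim probes through the TNFα and IL-1β arrays, where it is high, so that its count among the tested genes is a description. On TNFα 4, 9 and 14 it was -0.06, -1.45 and -0.53, all well above background. These arrays lay above every other array of the series. TNFα raised *Csf2* by 5.35 (SE 0.60, q = 0.000114 in limma), a 40.8-fold change from -6.04 ± 0.42 to -0.68 ± 0.71, and the difference was 5.31 and 5.66 within the slides. The call was kept in 15 of 15 alternatives that gave a value. The size depended on how dim signals were treated, since the normexp background correction with an offset of 50 gave 2.73 (q = 1.07e-05), and the control level rests on dim spots.

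With IL-1β, *Csf2* was -2.66, -3.07 and -3.46 on arrays 5, 10 and 15, all well above background. These arrays were all above the controls and below the TNFα arrays. The difference from controls was 2.97 (SE 0.60, 7.85-fold, adjusted p = 0.0926 in limma), which was not called, where 0.252% of all tested probes were called. It was 2.98 on slide 1 and 2.95 on slide 2. With the slide and the run of label numbers as blocks it was called (2.97, q = 0.0292), and likewise in a fit of the 6 arrays compared (q = 0.0392), while normexp gave 1.00 (q = 0.224). With TGFß1 the signal was -3.82, -5.24 and -5.76 on arrays 2, 7 and 12, and with IL-6 -5.64, -4.03 and -6.38 on arrays 3, 8 and 13. TGFß1 2 and 7 and IL-6 8 were well above background, both groups overlapped the controls, and the differences of 1.09 (q = 0.211) and 0.69 (q = 1) were not called in limma. The order of means was TNFα, IL-1β (-3.06 ± 0.40), TGFß1 (-4.94 ± 1.00), IL-6 (-5.35 ± 1.20) and controls, where the last 3 overlapped.

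*Csf3* (NM_009971), which encodes G-CSF, was well above background on IL-1β 15 only (-5.34). On the other 14 arrays the signal was -7.89 to -5.22, with TNFα 9 as the highest of them. The gene was not tested in any comparison and no fold-change is given. IL-1β 5 (-5.62) and IL-1β 10 (-6.72) were above every control (-7.89 to -6.78) as well, but not well above background, so that their order is not a measured difference.

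*Kitl* encodes the ligand of KIT, which holds stem cells, mast cells and melanocytes in their niches. Its signal (NM_013598) was 2.45, 3.11 and 2.49 on controls 1, 6 and 11, 1.53, 2.22 and 1.68 on TNFα 4, 9 and 14, and 0.38, 0.46 and 0.40 on TGFß1 2, 7 and 12. The 3 TGFß1 arrays were nearly equal and lowest of all, and the TNFα arrays lay between them and the controls. TGFß1 lowered *Kitl* 4.82-fold (log2 fold-change -2.27, SE 0.26, q = 8.38e-05 in limma), with -2.01 and -2.72 within the slides. This call was kept in 16 of 16 alternatives. TNFα lowered it 1.83-fold (log2 fold-change -0.87, SE 0.26, q = 0.0435 in limma), with -0.79 and -1.23 within the slides. The TNFα call was lost in 8 of 16 alternatives. These were quantile normalization (q = 0.0533), no filter on dim probes (q = 0.0980), a fit of the 6 arrays compared (q = 0.101), and leaving out control 1 (-0.99, q = 0.0525), control 6 (-0.65, q = 0.138), control 11 (-0.97, q = 0.0652), TNFα 4 (-0.73, q = 0.172) or TNFα 14 (-0.80, q = 0.116).

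With IL-1β, *Kitl* was 2.18, 2.97 and 2.51 on arrays 5, 10 and 15, and with IL-6 2.29, 3.00 and 2.76 on arrays 3, 8 and 13. Both groups overlapped the controls, and the differences were -0.13 (95% interval -0.69 to 0.43) and 0.00 (-0.56 to 0.56). In the order of means, controls (2.68 ± 0.37), IL-6 (2.68 ± 0.36) and IL-1β (2.55 ± 0.40) overlapped and were followed by TNFα (1.81 ± 0.36), which overlapped IL-1β, and TGFß1 (0.41 ± 0.04). The probes of the other *Kitl* transcript, NM_001347156, were lower with TGFß1 by the same order, at -2.44 (q = 0.00025) and -2.12 (q = 0.000624), both called in limma. With TNFα their differences of -0.99 (q = 0.0662) and -0.84 (q = 0.115) were not called, although all TNFα arrays lay below all controls for each probe.

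*Flt3l* encodes the FLT3 ligand, a growth factor of dendritic cell and lymphoid progenitors. Its signal (NM_013520) was -0.71, -0.42 and -0.25 on controls 1, 6 and 11, and -1.71, -1.67 and -1.47 on TGFß1 2, 7 and 12. On TNFα 4, 9 and 14 it was -0.83, -0.61 and -0.40, on IL-1β 5, 10 and 15 -0.83, -0.13 and -0.48, and on IL-6 3, 8 and 13 -0.72, -0.33 and -0.58. The TGFß1 arrays lay below all others, which overlapped each other. TGFß1 lowered *Flt3l* 2.23-fold (log2 fold-change -1.16, SE 0.19, q = 0.000955 in limma), by the same amount on either slide (-1.19 and -1.17), and the call was kept in 16 of 16 alternatives. The second probe gave -1.10 (q = 0.000726 in limma), and with TNFα it differed in sign from the first (0.27, q = 0.350 in limma), neither being called. The differences with TNFα (-0.15, 95% interval -0.56 to 0.26), IL-1β (-0.02, -0.43 to 0.39) and IL-6 (-0.08, -0.49 to 0.33) were not called. The order of means after controls (-0.46 ± 0.24) was IL-1β (-0.48 ± 0.35), IL-6 (-0.54 ± 0.20), TNFα (-0.61 ± 0.21) and TGFß1 (-1.62 ± 0.13).

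*Il7* encodes the survival factor of developing B and T cells, which stromal cells supply. Its signal (NM_001313889) was -3.03, -2.92 and -2.07 on controls 1, 6 and 11, and -5.27, -5.94 and -4.28 on TGFß1 2, 7 and 12. Only TGFß1 12 was well above background among the latter, and all 12 arrays of the other groups were. TGFß1 lowered *Il7* 5.61-fold (log2 fold-change -2.49, SE 0.45, q = 0.00198 in limma), with -3.39 on slide 1 and -1.85 on slide 2. The call was kept in 15 of 15 alternatives that gave a value, but the size depended on the treatment of dim signals, as normexp gave -0.86 (q = 0.0160). The TNFα arrays (-3.21, -3.17 and -2.13), the IL-1β arrays (-2.94, -2.69 and -1.96) and the IL-6 arrays (-3.16, -2.64 and -2.17) overlapped the controls. In each of the 5 groups, the array of the run of label numbers from 11 to 15 was the highest. Means were -2.53 ± 0.51 with IL-1β, -2.66 ± 0.50 with IL-6, -2.67 ± 0.52 in controls, -2.84 ± 0.61 with TNFα and -5.16 ± 0.83 with TGFß1, and TGFß1 alone did not overlap its neighbour. The probe of the transcript NM_001313888 was well above background on 0 arrays and was not tested.

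*Il15* encodes a survival factor of natural killer cells and memory T cells. Its signal (NM_008357) was -2.64, -1.67 and -2.21 on controls 1, 6 and 11, and -4.37, -2.79 and -3.84 on TGFß1 2, 7 and 12. All TGFß1 arrays lay below all controls, TGFß1 7 of slide 1 just below control 1. TGFß1 lowered *Il15* 2.82-fold (log2 fold-change -1.5, SE 0.43, q = 0.0236 in limma), but the difference was -0.37 within slide 1 and -2.44 within slide 2. With the slide as a block it was -1.54 (q = 0.0212). The call was lost in 6 of 16 alternatives. These were no filter on dim probes (q = 0.0519), a fit of the 6 arrays compared (q = 0.0599), and leaving out control 6 (-1.24, q = 0.0896), control 11 (-1.51, q = 0.0556), TGFß1 2 (-1.14, q = 0.104) or TGFß1 12 (-1.41, q = 0.0743). Normexp kept the call at -0.76 (q = 0.0438). The second probe gave -2.02 (q = 0.0084 in limma), with -0.70 and -2.72 within the slides and 1 of 3 TGFß1 arrays well above background.

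*Il15* was -2.0, -1.51 and -1.86 on TNFα 4, 9 and 14, -3.82, -2.57 and -2.57 on IL-1β 5, 10 and 15, and -2.95, -2.29 and -2.12 on IL-6 3, 8 and 13. IL-1β 5 lay among the TGFß1 arrays, and all 3 groups overlapped the controls. The differences were 0.38 (95% interval -0.55 to 1.32), -0.81 (-1.75 to 0.12) and -0.28 (-1.22 to 0.65), and none was called. The order of means was TNFα (-1.79 ± 0.25), controls (-2.17 ± 0.49), IL-6 (-2.46 ± 0.44), IL-1β (-2.99 ± 0.72) and TGFß1 (-3.67 ± 0.80), in which every neighbour overlapped the next.

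**Figure D2:**
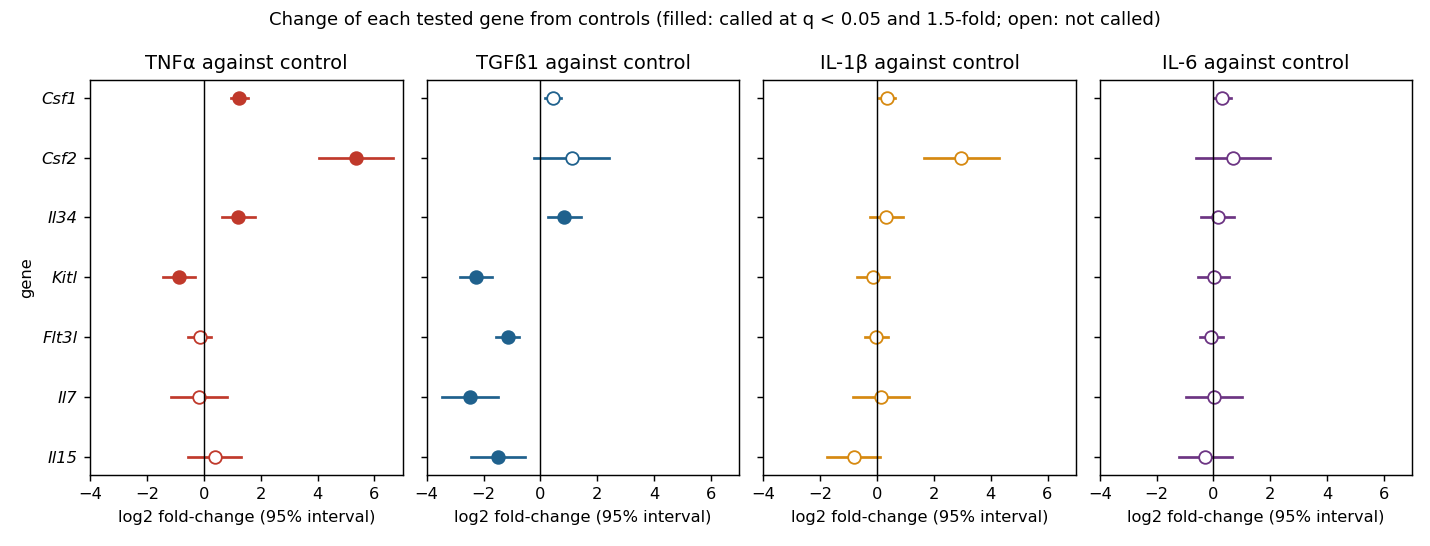
Log2 fold-change from controls (horizontal axes, with 95% intervals from limma) of the 7 tested genes in each treatment, 3 arrays against 3, filled where called. With TNFα *Csf2* lies at 5.35 and *Kitl* at -0.87, with TGFß1 *Kitl* lies at -2.27 and *Il7* at -2.49, and with IL-1β the open symbol of *Csf2* at 2.97 stands apart from the other genes.

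Without blocks, few probes of the array were called with IL-1β or IL-6. With IL-1β, where 0.245% of the tested probes were higher and 0.00682% lower, 0 of the 7 genes were called in limma, and 2 (*Csf1* and *Csf2*) had an unadjusted p under 0.05. Their median log2 fold-change was 0.14, against 0.00 for all tested probes. With IL-6, where 0.0648% of the probes were called, all of them higher (0.0648%) and 0% lower, 0 of the 7 were called in limma and 1 (*Csf1*) had an unadjusted p under 0.05. Their median was 0.02. With slide and run as blocks, 320 of the 29333 tested probes were called with IL-1β and 228 with IL-6. *Csf2* was then called with IL-1β (2.97, q = 0.0292 in limma). No other tool was run.

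**Figure D3:**
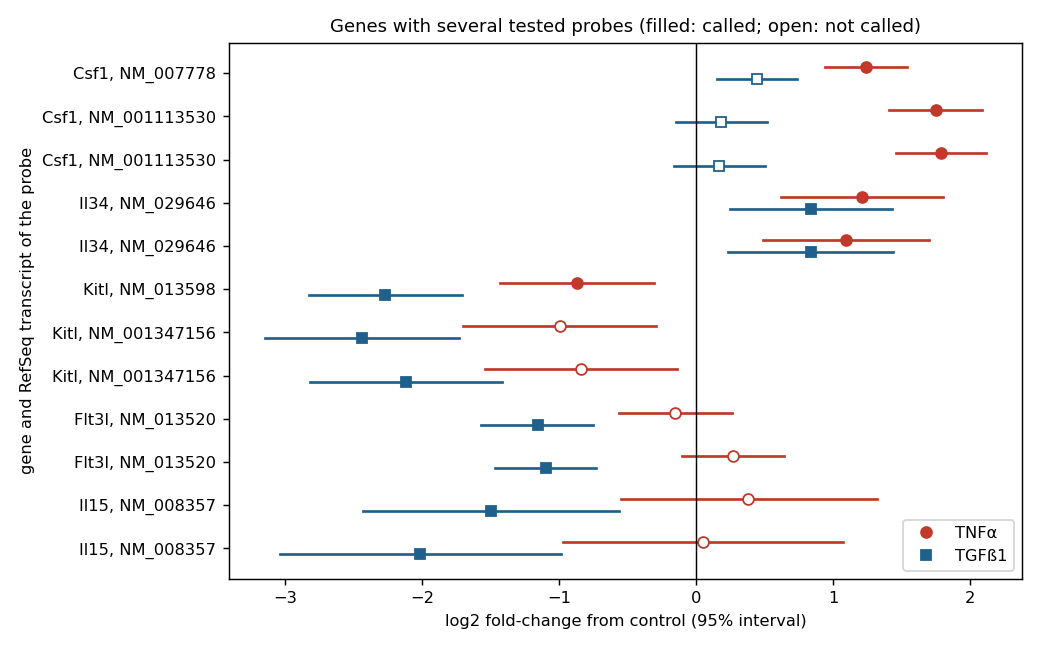
Log2 fold-change from controls (horizontal axis, with 95% intervals from limma) for every tested probe of the 5 genes that have several, each with its RefSeq transcript, circles for TNFα and squares for TGFß1, filled where called. The NM_001113530 probes of *Csf1* lie at 1.75 and 1.79 with TNFα, above the 1.24 of NM_007778, and the *Kitl* probes lie at -2.44 to -2.12 with TGFß1.

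Direct comparisons asked whether the treatments differ from each other. Between TNFα and TGFß1, 6 of the 7 genes were higher with TNFα, all but *Il34*, where 11.8% of all tested probes were called. On the 7 genes the median log2 difference was 1.40, against -0.02 over all tested probes (-0.14 with the array median as scale). This count and median include *Csf2*, which passed the filter through the TNFα and IL-1β arrays, where it is high. They are a description, and so are the counts and calls of *Csf2* in the other direct comparisons. *Csf2* differed by 4.26 (q = 0.000358), *Il7* by 2.33 (q = 0.00365), *Il15* by 1.88 (q = 0.00976), *Kitl* by 1.40 (q = 0.00242), *Flt3l* by 1.00 (q = 0.00281) and *Csf1* by 0.80 (q = 0.0015, all in limma). The *Csf1* call was lost with the array median as scale (0.68, q = 0.101), and the other 5 were kept in all alternatives that gave a value.

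Between TNFα and IL-1β, *Csf1* (0.88, q = 0.00246 in limma) and *Csf2* (2.38, 5.2-fold, q = 0.0376 in limma) were higher with TNFα, and 4.83% of all tested probes were called. The *Csf1* call was lost with the array median as scale (q = 0.0729). The *Csf2* call was lost in 7 of 14 alternatives, among them without TNFα 4 (2.07, q = 0.157), TNFα 14 (2.30, q = 0.101), IL-1β 5 (2.58, q = 0.0596), IL-1β 10 (2.38, q = 0.124) or IL-1β 15 (2.18, q = 0.101). *Il34* differed by 0.88 (q = 0.0816), which was called with the slide as a block (1.07, q = 0.00084). With slide and run as blocks 5 of the 7 genes were called, *Kitl* (-0.80, q = 0.000674) and *Il15* (1.16, q = 0.00766) among them. That fit called 3073 of all 29333 tested probes. Between TNFα and IL-6, 8.68% of all tested probes were called, and *Csf1* (0.93, q = 0.000806), *Csf2* (4.67, q = 0.000311) and *Il34* (1.07, q = 0.0241) were higher and *Kitl* was lower (-0.87, q = 0.0488, all in limma). The *Il34* call was lost in 5 of 15 alternatives, among them without TNFα 4 (1.05, q = 0.0795), TNFα 14 (0.97, q = 0.0831) or IL-6 13 (0.86, q = 0.0889). The *Kitl* call was lost in 7 of 15, among them without TNFα 4 (-0.73, q = 0.191), TNFα 14 (-0.80, q = 0.131), IL-6 8 (-0.71, q = 0.201) or IL-6 13 (-0.83, q = 0.114). The second probe of *Il34* (0.83, q = 0.079 in limma) was not called between TNFα and IL-6. Neither were the NM_001347156 probes of *Kitl* (-0.91, q = 0.104, and -0.83, q = 0.136 in limma).

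TGFß1 was below IL-1β and below IL-6 for *Kitl*, *Flt3l* and *Il7*. Against IL-1β, where 17.0% of all tested probes were called, *Kitl* was 2.14 lower with TGFß1 (q = 0.000124), *Flt3l* 1.14 lower (q = 0.00113) and *Il7* 2.63 lower (q = 0.00148, all in limma). Against IL-6, where 16.4% of all tested probes were called, they were 2.27 (q = 7.76e-05), 1.08 (q = 0.00163) and 2.51 lower (q = 0.00203, all in limma). These 6 calls were kept in all alternatives that gave a value. *Csf2* was 1.88 higher with IL-1β than with TGFß1 (q = 0.0400 in limma), a call lost in 9 of 14 alternatives, among them without TGFß1 7 (1.73, q = 0.107), TGFß1 12 (1.47, q = 0.149), IL-1β 5 (1.68, q = 0.109), IL-1β 10 (1.88, q = 0.107) or IL-1β 15 (2.08, q = 0.0521). With slide and run as blocks *Il15* was 0.72 higher with IL-1β than with TGFß1 (q = 0.0348), against 0.68 without (q = 0.282). With the slide as a block *Il34* was lower with IL-1β (-0.69, q = 0.00337) and with IL-6 (-0.87, q = 0.000895) than with TGFß1, which was not called without it (q = 0.199 and 0.0888). *Il15* was 1.21 higher with IL-6 than with TGFß1 (q = 0.0621), and was called without TGFß1 7 (1.65, q = 0.0178) or with slide and run as blocks (1.25, q = 0.00255). The second probe of *Il15* was called between them (1.54, q = 0.0341 in limma), although the arrays of the groups overlapped. Between IL-1β and IL-6, 0.419% of all tested probes and 0 of the 7 genes were called in limma, and 1 of them (*Csf2*, 2.29, q = 0.219) had an unadjusted p under 0.05.

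Many receptors of these ligands were dim in MEFs, and *Il2rg* stood out with TNFα. Of 12 receptor genes, 6 were tested, while *Kit*, *Flt3*, *Csf2rb2* and *Ptprz1*, receptors or receptor chains for KIT ligand, FLT3 ligand, IL-3 and IL-34, were well above background on 0 arrays, *Csf2ra* on 7 and *Il7r* on 3. *Csf1r* and *Csf3r* were well above background on 15 arrays, with differences from controls between -0.02 and 0.37 that were not called. *Il2rg*, the common γ-chain used by IL-7 and IL-15, rose from -0.13 ± 0.42 to 2.38 ± 0.33 with TNFα (2.52, q = 5.93e-05 in limma, kept in 16 of 16 alternatives). *Il2rb*, the chain that IL-15 shares with IL-2, fell with TNFα (-1.31, q = 0.0318, lost in 7 of 16 alternatives) and with TGFß1 (-1.32, q = 0.0189 in limma, lost in 4 of 16). Arrays whose leaving out ended the TNFα call were control 11 (-0.95, q = 0.122), TNFα 4 (-1.19, q = 0.122) and TNFα 9 (-1.10, q = 0.116), and for TGFß1 control 11 (-0.96, q = 0.0760), TGFß1 2 (-1.20, q = 0.0711) and TGFß1 7 (-1.29, q = 0.0521). *Il15ra*, which presents IL-15, differed by 0.99 with TNFα (q = 0.105), called with the slide as a block. Of the tested receptors, 1 was higher and 1 lower with TNFα and 1 lower with TGFß1, and the medians were 0.49 and 0.06. Over all tested probes, 4.12% were higher and 6.06% lower with TNFα, and 10.8% were lower with TGFß1.

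Of 14 related factors of blood and lymphoid cells, 8 were tested. With TNFα *Tslp* (3.30, q = 0.000335), a cytokine that acts on dendritic cells, and *Cxcl12* (1.04, q = 0.0163), the chemokine that retains stem cells, were higher, and *Thpo*, the growth factor of platelet-forming cells, was lower (-1.35, q = 0.00241, all in limma). *Lif*, a cytokine of the IL-6 family, was well above background on the 3 TNFα arrays and on no other array. It passed the filter through that group alone, so that its call is no support, and it was at least 1.21-fold higher than in controls (q = 0.0131 in limma), a bound set by the dimmest signals well above background on the control arrays. Without it, 2 of 7 tested related factors were higher, beside 4.12% of all tested probes. Among them is *Tslp*, which passed the filter through the TNFα and IL-1β arrays, where it is high. The count is thus a description. With TGFß1, *Il11* (2.6, q = 0.00968) and *Cxcl12* (2.06, q = 0.00014) were higher, and *Thpo* (-2.63, q = 1.32e-05), *Il6* (-0.99, q = 0.0445) and *Tslp* were lower in limma. *Tslp* was well above background on 2 controls and on no TGFß1 array, and was at least 1.22-fold lower (q = 0.00757). The *Il6* call was lost in 9 of 16 alternatives, among them without control 6 (-0.91, q = 0.116), control 11 (-0.91, q = 0.119), TGFß1 2 (-0.78, q = 0.166) or TGFß1 12 (-0.90, q = 0.130). The *Cxcl12* call with TNFα was lost in 4 of 16, among them without TNFα 4 (1.06, q = 0.0520) or TNFα 14 (0.99, q = 0.0536). The *Lif* call was lost without TNFα 4 (q = 0.0538) and with normexp, as was the *Tslp* call with TGFß1 under normexp (-0.18, q = 0.437). The *Tslp* and *Thpo* calls with TNFα and those of *Il11*, *Thpo* and *Cxcl12* with TGFß1 were kept in all alternatives that gave a value. The sizes moved with normexp, to 1.64 for *Tslp* with TNFα and to -1.5 for *Thpo* with TGFß1. Medians of the list were 0.16 with TNFα and 0.02 with TGFß1, or 0.14 and 0.11 with *Lif* and *Tslp* at their bounds.

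Of 14 genes of signalling below the receptors, 13 were tested, and the calls were all lower, 2 with TNFα and 4 with TGFß1. Over all tested probes lower calls were also the more frequent, with 6.06% lower and 4.12% higher with TNFα. With TGFß1 they were 10.8% and 7.17%. *Jak3*, the kinase bound to the γ-chain, was lower with TNFα (-1.11, q = 0.00605) and TGFß1 (-1.36, q = 0.000982), and so was *Stat3* (-1.01, q = 0.0156, and -0.84, q = 0.023, all in limma). With TGFß1 *Cish* (-1.07, q = 0.0323) and *Ptpn6* (-1.32, q = 0.00401), which restrain the pathway, were lower as well. The *Cish* call was lost in 7 of 16 alternatives, among them without control 6 (-0.73, q = 0.123), control 11 (-1.11, q = 0.0654), TGFß1 2 (-1.05, q = 0.0862), TGFß1 7 (-1.15, q = 0.0532) or TGFß1 12 (-1.01, q = 0.0948). The *Stat3* call with TNFα was lost without control 11 (-0.95, q = 0.0582) or TNFα 4 (-0.89, q = 0.0751), and that with TGFß1 in 5 of 16 alternatives, among them without control 11 (-0.78, q = 0.0722), TGFß1 2 (-0.68, q = 0.0994) or TGFß1 12 (-0.81, q = 0.0701). With normexp *Jak3* was -0.73 with TNFα and -0.80 with TGFß1. *Jak3* with TNFα was lost in the fit of the arrays compared (q = 0.0512), and *Ptpn6* fell under the fold threshold with normexp (-0.56). Medians were -0.19 with TNFα and -0.35 with TGFß1.

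CSF1, KIT ligand and FLT3 ligand can be cut from the cell surface, and 8 of 10 genes for proteases of this kind and their regulators were tested. With TNFα, *Mmp9*, a gelatinase, rose from -4.18 ± 0.58 to 0.13 ± 0.33 (4.31, q = 1.19e-05) and *Adam8* by 1.44 (q = 0.00261), while *Rhbdf1* was lower (-0.60, q = 0.0415, all in limma), a call lost in 10 of 16 alternatives, among them without control 1 (-0.60, q = 0.0887), control 11 (-0.52, q = 0.136), TNFα 4 (-0.42, q = 0.181) or TNFα 9 (-0.60, q = 0.0941). With TGFß1 *Furin*, a convertase, was higher (0.76, q = 0.00141 in limma). With normexp the rise of *Mmp9* was 2.91. *Adam17*, a sheddase, differed by 0.18 with TNFα (q = 0.422) and -0.14 with TGFß1 (q = 0.465). Medians were -0.30 and -0.10.

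Growth factor mRNAs with AU-rich ends are short-lived, and all 10 regulators of mRNA stability and NF-kB feedback were tested. With TNFα *Tnfaip3*, the feedback inhibitor A20, was higher by 3.84 (q = 8.65e-09) and *Zfp36*, tristetraprolin, by 0.79 (q = 0.00202). With TGFß1 *Zc3h12a*, an RNase, was higher (2.22, q = 0.0207), and *Zfp36l1* (-0.91, q = 0.00159) and *Tnfaip3* (-0.71, q = 0.00119, all in limma) were lower. With IL-1β *Tnfaip3* rose by 1.34 (q = 0.000348 in limma), a call lost in the fit of the arrays compared (q = 0.0541). The *Zc3h12a* call was lost in 4 of 15 alternatives, among them without control 11 (1.75, q = 0.0835), TGFß1 2 (2.02, q = 0.0759) or TGFß1 12 (1.86, q = 0.0843). *Zfp36* lost its call with the array median as scale (0.69, q = 0.0537), and *Tnfaip3* with TGFß1 fell under the fold threshold with normexp (-0.54). Medians were 0.13 and 0.12 with TNFα and TGFß1.

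Over the 5 lists together, 45 of 60 genes were tested. With TNFα 8 were higher (7 of 44 without *Lif*) and 5 lower, beside 4.12% higher and 6.06% lower over all tested probes. With TGFß1 4 were higher and 10 lower, beside 7.17% and 10.8%. The higher counts keep *Tslp* with TNFα and *Zc3h12a* with TGFß1, each well above background on 2 controls. Both passed the filter through treated groups where they are high, so that these counts are a description. With IL-1β 1 was higher, beside 0.245%. With IL-6 0 of the 45 were called in limma, beside 0.0648%, and 7 had an unadjusted p under 0.05. With slide and run as blocks, 6 were called with IL-1β, adding *Il2rg* (0.62), *Il6* (1.5), *Tslp* (1.30), *Mmp9* (1.71) and *Zc3h12a* (2.88, also called with the slide alone). In the same fit 4 were called with IL-6, namely *Il2rb* (1.91), *Il6* (1.52), *Pim1* (0.67) and *Adam8* (0.67), where the values are those without blocks. That fit called 320 of all 29333 tested probes with IL-1β and 228 with IL-6. *Cd14*, of the macrophage list, rose with TNFα by 0.78 (q = 0.0029 in limma), a list in which *Ptprc*, *Adgre1*, *Lyz2* and *Fcgr1* were well above background on 0 of 15 arrays. Of the fibroblast markers 1 (*Dcn*) was higher and 4 lower with TNFα, and 2 were higher and 3 lower with TGFß1, and their part in the results was not tested.

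**Figure D4:**
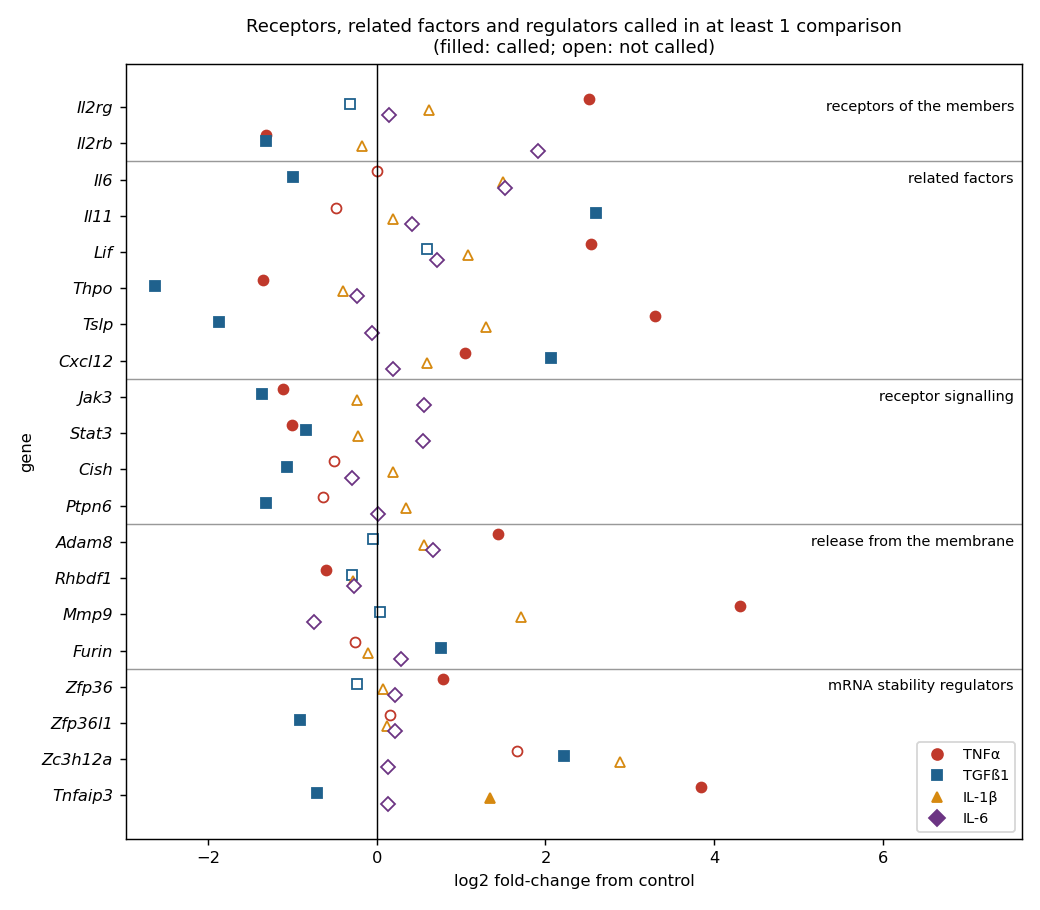
Log2 fold-change from controls (horizontal axis) of the receptor, related factor, signalling, release and mRNA stability genes that were called in at least 1 treatment, with a symbol for each treatment, filled where called. *Mmp9* lies at 4.31 and *Tnfaip3* at 3.84 with TNFα, and no IL-6 symbol is filled. The points of *Lif* with TNFα and of *Tslp* with TGFß1 are measured values against groups that were not well above background, for which only the bounds of 1.21-fold and 1.22-fold hold.

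As a description, the genes whose signal ran most like each member over the 15 arrays were sought among 13486 tested genes by Pearson's r, which the 3 arrays of a group and the slides share. For *Csf1* they were *Trim69* (0.956), *Slc25a37* (0.949) and *Trp53* (0.947), for *Il34* *Errfi1* (0.982), *Akr1b3* (0.964) and *Map4k4* (0.960), and for *Csf2* *Gch1* (0.951), *Ier3* (0.938) and *Mmp13* (0.930). For *Kitl* they were *Il6ra* (0.987), *Hacl1* (0.986) and *Csad* (0.982), for *Flt3l* *BC039966* (0.979), *Apol7a* (0.978) and *Tcf19* (0.974), for *Il7* *Grhl1* (0.958), *Ogfod3* (0.954) and *Plpp6* (0.949), and for *Il15* *Pgd* (0.912), *Echdc1* (0.898) and *Gbp4* (0.895). Among the members, *Flt3l* ran with *Il7* (0.915) and *Kitl* (0.911), and *Csf1* with *Il34* (0.852) and *Csf2* (0.840). The lowest r was that of *Il34* with *Kitl* (-0.631).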

How the data were processed

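Gene expression was measured on 15 one-colour Agilent mouse arrays. The authors labelled total RNA with Cyanine 3 and extracted spots with Agilent Feature Extraction 10.7.3.1 (per the labels). The deposited values are intensities, that is, processed signals after background subtraction, with no normalization between arrays. The deposited table of the series holds the same intensities (largest difference 0). Groups came from the labels. The deposited intensities were turned here into log2 values, averaged over the spots of a probe without spots marked as non-uniform or outliers, and reduced by the 75th percentile of the 59305 non-control spots of the array. Probes were named through RefSeq identifiers (33767 of 56605 probes matched, GRCm38.p6), and a gene with several probes is given by its brightest. All 15 arrays entered 1 fit in limma 3.58.1 (R 4.3.3), with 10 comparisons. Its moderated tests were two-sided and were adjusted by Benjamini-Hochberg over 29333 probes. Called means q < 0.05 and an absolute fold-change of at least 1.5. The named genes were the 8 members, the 3 genes most correlated with each, and the list genes called against controls. Members, lists and motifs were chosen with earlier results of these data known. Replicates are separate samples in the labels, and the paper calls them biological. Alternatives were other scalings, normexp (offset 50, on median signals, chosen after seeing the data), other filters, slide and label-number runs as blocks, fewer arrays, and leaving out each array. The label numbers form runs of 5 with 1 array of each group. With slide and group removed, arrays of a run correlated in 30 of 30 pairs over 0.1 (Pearson's r 0.114 to 0.671), against 2 of 60 pairs of different runs. The script was tested on simulated data. Figures were drawn with matplotlib 3.10.9.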

Additional observations from a re-analysis of the deposited data

How the results depend on the processing

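The directions of the called members were kept in all alternatives. Against controls, 244 of 256 values of members under another processing or fit stayed on their side of the threshold, 10 lost and 2 gained a call, and of 168 values with 1 array left out, 14 lost a call. The totals here and below include values that were not called, which cannot lose a call. Against controls the losses fell on Il34 (1 of 16 alternatives with TNFα, 9 of 16 with TGFß1), Kitl with TNFα (8 of 16) and Il15 with TGFß1 (6 of 16). Between treatments, 348 of 372 stayed, 13 lost and 11 gained a call, and with 1 array left out, 17 of 252 lost and 1 gained a call. The labels share no replicate number between groups, so the runs of label numbers served as the replicate block, together with the slide.

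With slide and run as blocks, the probes called were 4513 for TNFα, 320 for IL-1β and 228 for IL-6 against controls, 3073 for TNFα against IL-1β, 4126 for TNFα against IL-6 and 518 for IL-1β against IL-6. The members called were then 1 for IL-1β against controls, 5 for TNFα against IL-1β and 5 for IL-6 against TGFß1. For the last, 6280 of the 29333 tested probes were called. With the slide alone, 37 probes were called for IL-6 against controls and 197 for IL-1β against IL-6. With the array median as scale, the probes called were 47 for IL-1β and 8 for IL-6 against controls, 872 for TNFα against IL-1β (members 0) and 66 for IL-1β against IL-6. Normexp gave 3472 for TGFß1 against controls, 3178 for IL-1β against TGFß1 and 3162 for IL-6 against TGFß1. Without the filter on dim probes, 9 probes were called for IL-6, 916 for TNFα against IL-1β (members 1) and 61 for IL-1β against IL-6, with 3 members for TGFß1 against controls and 2 for TNFα against IL-6. With probes well above background on all 15 arrays, which leave out Csf2 and Il7, 1 member was called for TNFα against IL-1β and 2 for IL-1β against TGFß1. With the arrays compared alone, the probes called were 16 for IL-1β (members 1), 0 for IL-6, 710 for TNFα against IL-1β and 6 for IL-1β against IL-6, with 3 members for TGFß1. Where the share of tested probes called is not given, the member counts are a description. The causes were not tested.

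Leaving out 1 array at a time, the probes called against controls ranged from 1896 (without TNFα 4) to 2732 for TNFα (members 3 to 4), from 4074 to 5489 for TGFß1 (3 to 5), from 36 to 56 for IL-1β (0 to 0) and from 5 to 18 for IL-6 (0 to 0). The members called with TGFß1 were 3 without control 6, control 11, TGFß1 2 or TGFß1 12. For IL-1β 36 probes were called without control 1, 41 without control 11, 39 without IL-1β 15 and 47 without IL-1β 5 or 10, and for IL-6 5 without control 1 or 6 and 6 without IL-6 8. Between treatments they were 2832 to 3123 for TNFα against TGFß1 (members 6 to 6), 688 (without IL-1β 10, and 765 without TNFα 4) to 1235 for TNFα against IL-1β (1 to 2), 1715 to 2326 for TNFα against IL-6 (2 to 4), 3214 (without IL-1β 10) to 5187 for IL-1β against TGFß1 (3 to 4), 54 to 80 for IL-1β against IL-6 (0 to 0, over all 6 arrays) and 3200 (without IL-6 8) to 4915 for IL-6 against TGFß1 (3 to 4). Signals near background limit Csf2 in controls, Il7 with TGFß1 and Csf3 throughout.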
